A study of Mus musculus with 6 samples.

Results

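The SP1 sites described here lie at 8 mouse genes that regulate blood and immune cells: Myb, Ikzf1, Ikzf2, Prdm1, Ptprc, Tnfaip3, Stat4 and Cxcr4. Sites were chosen by position, as those whose midpoint fell inside 1 of these genes or within 50000 bp of either of its ends (RefSeq, GRCm38.p6, which is mm10), and 66 of 9001 listed sites met this rule. All 8 genes had a site and no site belonged to 2 of them. The genes themselves were picked with results of this comparison already known, so their fold changes and calls are given as a description and carry no test of the group.

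ATAC-seq, in which the transposase Tn5 inserts adapters into accessible DNA, was done with an in-house Tn5 and paired-end sequencing on nuclei of neural progenitor cells (NPC, 3 libraries, also labelled R1) and on R1 embryonic stem cells (ESC, 3 libraries), a pluripotent mouse line, with no treatment or allele named in the labels for either group. Both were kept as frozen cells, and the labels used here do not say how the NPC were made. The comparison asks how accessibility at high-confidence sites of SP1, a zinc-finger factor that binds GC-rich DNA, differs between the cell types. The authors' deposited table gives for each 500 bp site a mean signal (normalized count averaged over libraries), a log2 fold change with its standard error (SE) and an adjusted p-value. It covers chromosome 1, chromosome 10 and chromosome 11 up to position 20195189. Positive values mean higher in NPC, a direction read from the name of the table. A site is called at the authors' adjusted p below 0.05. Single libraries were not analysed here. Their depth is unknown, and no SD over libraries stands beside a site. The labels do not say whether libraries came from separate cultures, so these p-values measure the spread between libraries, which may be technical. In bulk chromatin, fewer cells with an open site and a less open site in each cell cannot be told apart.

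The 8 genes act at different levels of blood cell biology. Myb is a transcription factor of haematopoietic stem and progenitor cells, Ikzf1 (Ikaros) and Ikzf2 (Helios) are zinc-finger factors of lymphocytes, and Prdm1 (Blimp1) drives plasma cell differentiation and is also needed for primordial germ cells. Stat4 carries the interleukin-12 signal to the nucleus, Tnfaip3 (A20) is a ubiquitin-editing enzyme that restrains NF-kappaB, Ptprc (CD45) is the receptor tyrosine phosphatase of leukocytes, and Cxcr4 is the receptor of the chemokine CXCL12, known both from stem cell homing in marrow and from neuronal migration in the developing brain.

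No site sequence can be read by coordinates here, but promoter windows from RefSeq (GRCm38.p6, bases before a listed transcription start, read 5′ to 3′ along the gene) show the DNA under or beside sites on which the account turns. Gene windows were found for 7 of the 8 genes, Ikzf2 being named only. Capitals in the first pair mark the GC-box core GGGCGG or its reverse complement CCGCCC. The Fignl1 window lies wholly under the site at chr11:11808750-11809250 in the flank of Ikzf1, which was higher in NPC, and the Cxcr4 window lies between sites that were all higher.
Fignl1 promoter, chr11:11808963-11809212, minus strand: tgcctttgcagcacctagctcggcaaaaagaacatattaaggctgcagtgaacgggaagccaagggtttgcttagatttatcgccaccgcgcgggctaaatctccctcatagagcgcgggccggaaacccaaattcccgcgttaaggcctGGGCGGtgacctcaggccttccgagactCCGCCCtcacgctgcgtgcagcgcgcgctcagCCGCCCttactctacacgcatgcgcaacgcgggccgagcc
Cxcr4 promoter, chr1:128592300-128592549, minus strand: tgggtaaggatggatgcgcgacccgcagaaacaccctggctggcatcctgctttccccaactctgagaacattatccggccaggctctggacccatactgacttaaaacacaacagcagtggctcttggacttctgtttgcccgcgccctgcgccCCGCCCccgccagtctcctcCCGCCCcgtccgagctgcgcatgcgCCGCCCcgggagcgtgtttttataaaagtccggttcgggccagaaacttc

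The next pair is shown for its cover by a site, and capitals mark the bases that lie under it. The window of Gm31812, a lncRNA gene model beyond the 3′ end of Stat4, is under a site that was higher in NPC, and the Prdm1 window is at its listed start, under a site that was not called.
Gm31812 promoter, chr1:52113891-52114140, minus strand: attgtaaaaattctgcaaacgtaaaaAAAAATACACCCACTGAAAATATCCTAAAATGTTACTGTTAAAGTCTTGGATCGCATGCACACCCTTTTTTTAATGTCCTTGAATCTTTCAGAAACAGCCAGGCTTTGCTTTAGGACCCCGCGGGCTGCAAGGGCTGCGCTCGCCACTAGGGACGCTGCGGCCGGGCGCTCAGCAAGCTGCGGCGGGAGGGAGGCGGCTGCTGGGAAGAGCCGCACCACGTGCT
Prdm1 promoter, chr10:44458749-44458998, minus strand: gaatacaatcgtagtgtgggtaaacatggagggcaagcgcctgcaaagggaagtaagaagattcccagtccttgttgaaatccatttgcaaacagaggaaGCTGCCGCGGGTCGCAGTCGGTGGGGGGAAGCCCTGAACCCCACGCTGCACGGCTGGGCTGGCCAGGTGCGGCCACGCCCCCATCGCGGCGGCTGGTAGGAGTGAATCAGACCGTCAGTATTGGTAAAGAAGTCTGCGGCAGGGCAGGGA

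Each of the Fignl1 and Cxcr4 windows held the core 3 times on either strand together, and the windows of Gm31812 and Prdm1 held it 0 times. The longer box GGGGCGGGG (reverse complement CCCCGCCCC), which contains the core, occurred 1 time, in the Cxcr4 window. Of 32851 RefSeq promoter windows of the same 250 bases, 32.7% held the core and 10.4% the longer box. GC content was 61.2% at both Fignl1 and Cxcr4, 52.0% at Gm31812 and 59.2% at Prdm1, against a median of 52.4% over all windows. Among the other genes, windows at Myb, at the first listed start of Ikzf1 and at the upstream start of Tnfaip3 held the core 3, 2 and 3 times, and those at Stat4 and Ptprc 0 times. A match is a string of letters and not a bound site, and the absence of one says only that these letters are not in the window.

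As a whole the 66 sites divided much as the listed sites did. In NPC against ESC, 16 were higher (24.2%) and 24 lower (36.4%), where 22.8% of all 9001 listed sites were higher and 32.6% lower, and 23.1% and 30.8% of the 7177 sites inside or within 50000 bp of any protein-coding gene. The median log2 fold change was -0.59 over the 66 sites and -0.29 over all listed sites. Both shares are near the background, so they are no result about the group. With each p-value computed anew as fold change over SE, 15 of the 66 sites were higher and 19 lower, and 1688 and 2382 of all listed sites. Recomputed in the same way after centring on the median of all listed sites, which adds 0.29 to each log2 value, the counts were 17 and 17 of the 66, and 2081 and 2049 of all listed sites. The calls were spread unevenly over the genes. The 4 sites of Cxcr4 were all higher, 2 of 3 at Ikzf2 and 1 of 3 at Tnfaip3 were higher with none lower, 6 of 9 at Myb were lower with none higher, and Ikzf1, Prdm1, Stat4 and Ptprc had calls in both directions.

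**Figure D1:**
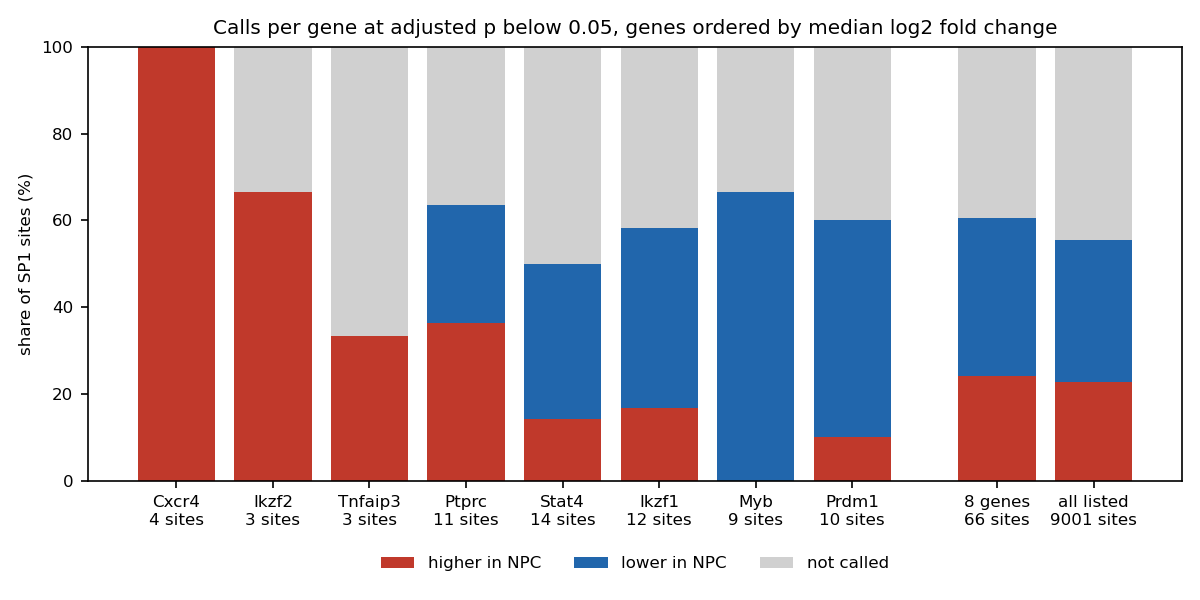
Share of SP1 sites called higher (red) or lower (blue) in NPC against ESC, or not called (grey), for each gene, for the 8 genes together and for all listed sites, with the number of sites under each bar. Genes are ordered by median log2 fold change, from Cxcr4, with all sites higher, to Prdm1, with 1 higher and 5 lower of 10. Myb, next to Prdm1, had 6 of 9 lower. The 66 sites together (24.2% higher, 36.4% lower) resemble all listed sites (22.8% and 32.6%).

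Myb, chr10:21124930-21160984, had falls alone among its calls, at 6 of 9 sites. The strongest site, chr10:21101907-21102407 with a mean signal of 22.2, lay 22.8 kb beyond the 3′ end and had a log2 fold change of -4.16 ± 0.60 (authors' adjusted p = 2.49e-10, authors' deposited table). It was slightly nearer to Ahi1, which encodes a protein of the ciliary transition zone, at 21.7 kb. Inside Myb, 15.9 kb from the start, a site of mean signal 10.2 had -3.71 ± 0.79 (authors' adjusted p = 1.48e-05, authors' deposited table).

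Lesser falls at Myb came in the authors' deposited table at 29.9 kb from the start in the gene (-2.90 ± 1.21), 14.9 kb beyond the 3′ end (-1.88 ± 0.87) and 18005 bp upstream (-3.59 ± 1.08), with authors' adjusted p of 0.0138, 0.0255 and 0.00137. Next to the start the pattern was mixed. A site 1.81 kb into the gene was lower (-2.21 ± 0.83, authors' adjusted p = 0.00836), while its neighbour 781 bp closer to the start had 1.09 ± 0.75 (authors' adjusted p = 0.106, authors' deposited table), with similar signal of 5.49 and 6.04. The remaining pair, 33.9 kb beyond the 3′ end and 28.2 kb upstream, had -1.64 ± 0.91 and 0.52 ± 0.63 and was not called (authors' adjusted p = 0.0527 and 0.366, authors' deposited table). The median of the 9 sites was -2.21, below which 9.86% of genes with at least 3 sites had theirs.

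**Figure D2:**
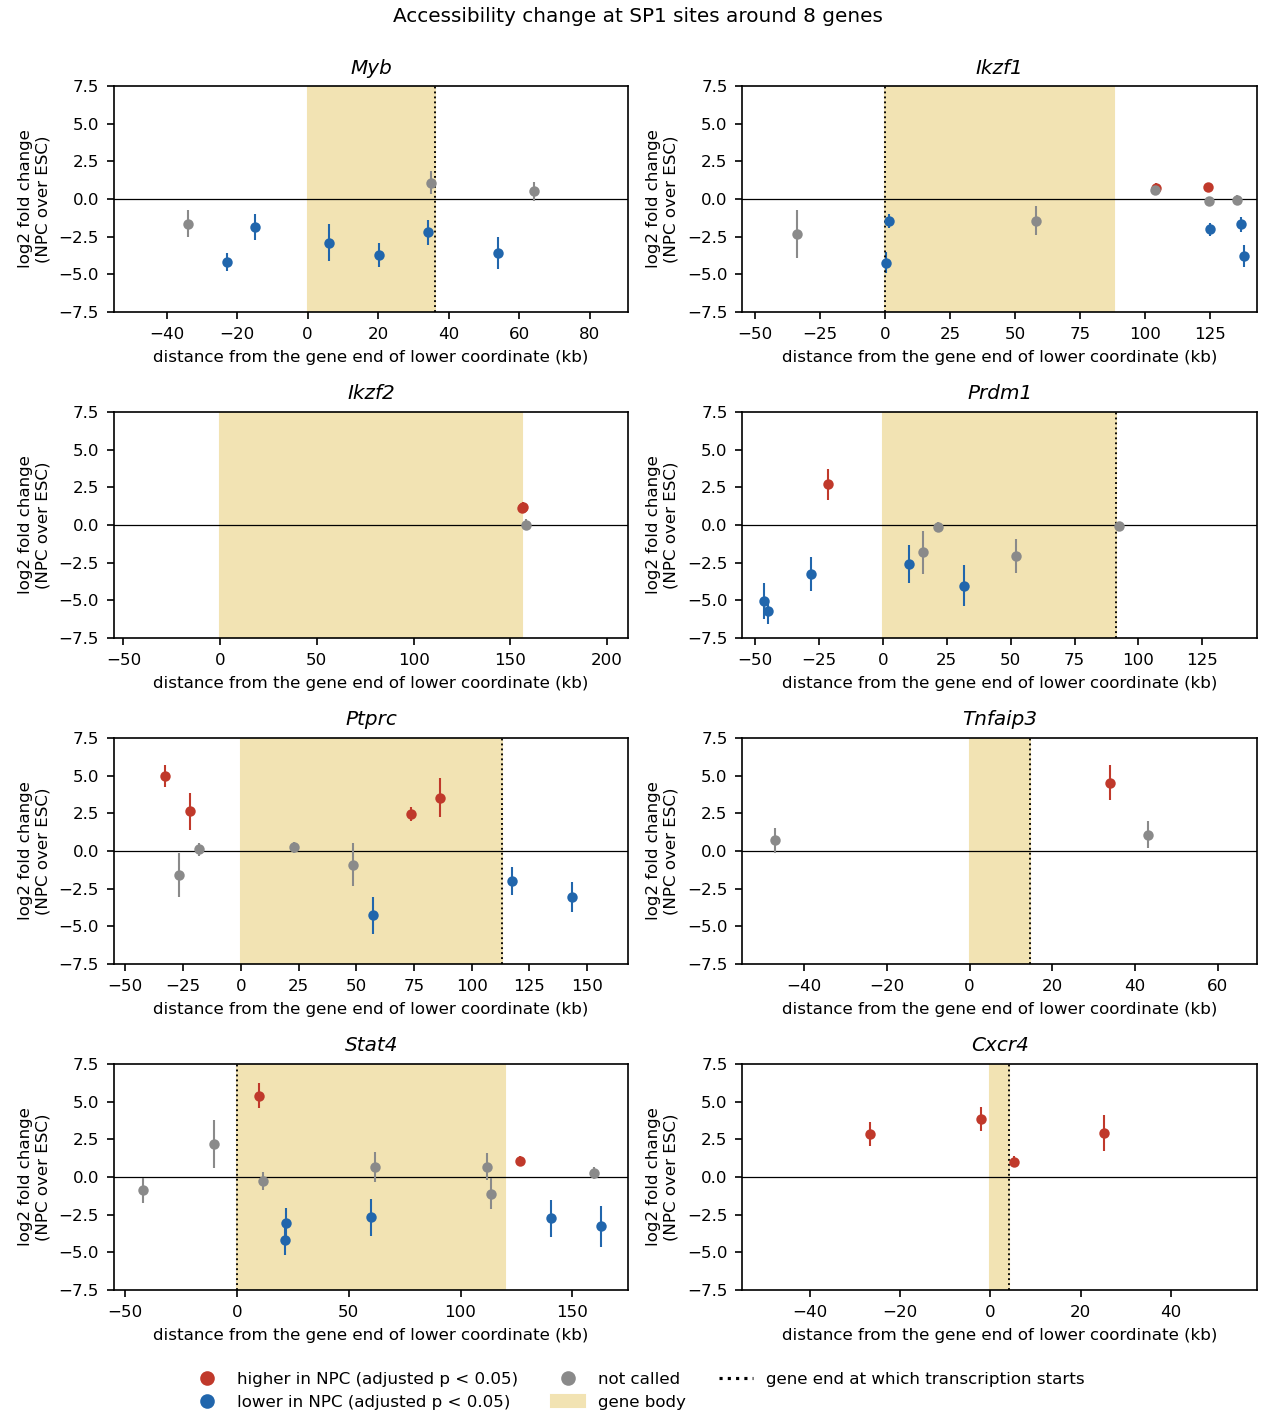
Log2 fold change (NPC over ESC, error bars 1 SE) of each SP1 site against its distance in kb from the gene end of lower coordinate, for each of the 8 genes, with the gene body shaded and a dotted line at the upstream end of the gene (not drawn for Ikzf2, whose strand is in no table used here). The line need not be a listed start. At Prdm1 the listed start lies under the site at 21.5 kb. Sites around Cxcr4 lie above 0 throughout, called sites around Myb lie between -4.16 and -1.88, and called sites run between -4.28 and 4.98 at Ptprc and between -4.17 and 5.38 at Stat4.

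Ikzf1, chr11:11684962-11772930, was lower in NPC at its start. The site 93 bp from the gene end, chr11:11684805-11685305, had a log2 fold change of -4.23 ± 0.69 (authors' adjusted p = 2.57e-08, authors' deposited table) at a mean signal of 17.6. It was the 1 site of the 66 within 1000 bp of an end of its own gene that was lower, beside the 2 higher ones at Ikzf2 and the uncalled one at Prdm1. The next site, 1.25 kb into the gene and 287 bp after the first listed start, also fell, by 1.48 ± 0.46 (authors' adjusted p = 0.00178, authors' deposited table) at signal 15.8. A body site had -1.43 ± 0.96 and a site 34.1 kb upstream, nearest to 4930512M02Rik, -2.33 ± 1.60, neither called, at signals of 3.64 and 1.85 (authors' adjusted p = 0.0997 and 0.0914, authors' deposited table).

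The other 8 sites in the Ikzf1 window lie 15.7 to 49.8 kb beyond its 3′ end, all nearer to or inside Fignl1, an AAA ATPase gene of DNA repair, and Ddc, which encodes the decarboxylase that makes dopamine and serotonin. A pair overlapping by 213 bp between Ikzf1 and Fignl1 had 0.62 ± 0.36 and 0.75 ± 0.33, of which the second was called higher (authors' adjusted p = 0.0722 and 0.0191, authors' deposited table). At the start of Fignl1 and upstream of it, 3 overlapping sites lay with midpoints 354 and 361 bp apart. Only the first covers the start, and the first and last were called in opposite directions. The first, of signal 56.2 and over the promoter printed above, was higher by 0.78 ± 0.25, the middle one had -0.10 ± 0.27, and the outermost, of signal 16.3, was lower by 2.02 ± 0.45 on the log2 scale (authors' adjusted p = 0.00211, 0.724 and 4.01e-05, authors' deposited table). Neighbours in that run overlap by 146 and 139 bp, so they may share part of their reads. Inside Ddc the values were -0.05 ± 0.31, -1.69 ± 0.47 and -3.77 ± 0.71, the last at the edge of the window, 49.8 kb from Ikzf1 (authors' adjusted p = 0.878, 0.000732 and 1.12e-06, authors' deposited table).

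Ikzf2, chr1:69531207-69687351, had its 3 sites together at 1 end of a gene of 156 kb, the fewest sites per length of the 8 genes (1.17 per 100 kb, where the median gene had 4.75). A pair overlapping by 212 bp, 55 and 233 bp from that end, was higher in NPC with log2 fold changes of 1.14 ± 0.30 and 1.22 ± 0.32 (authors' adjusted p = 0.000294 and 0.000239, authors' deposited table). Both had strong signal, 35.5 and 35.9, and small errors. The next site, 1.84 kb from the end, had 0.03 ± 0.36 (authors' adjusted p = 0.942, authors' deposited table). The overlapping pair may share part of its reads and is less than 2 independent measurements.

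Prdm1, chr10:44437174-44528558, had the lowest median of the 8 genes, -2.33, with 5 sites lower, 1 higher and 4 not called. The largest fall of all 66 sites was at chr10:44391842-44392342, 45.1 kb beyond the 3′ end, with a log2 fold change of -5.74 ± 0.83 (authors' adjusted p = 1.49e-10, authors' deposited table) at a mean signal of 33.9. A weaker site 1.60 kb from it, of signal 5.19, had -5.06 ± 1.20 (authors' adjusted p = 4.85e-05, authors' deposited table). Both are nearer to Atg5, an autophagy gene, at 27.8 and 26.2 kb, than to Prdm1.

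Toward Prdm1 from that pair, the next site was lower (-3.23 ± 1.12, authors' adjusted p = 0.00448) and the one after it, 6.68 kb on, was the lone rise at 2.71 ± 1.02 (authors' adjusted p = 0.00834, authors' deposited table). Their signals were 4.50 and 4.52, and opposite calls at like depth stand side by side here. In the gene body, sites of signal 2.95 and 2.90 were lower, with -2.61 ± 1.27 and -4.04 ± 1.36 (authors' adjusted p = 0.0286 and 0.0027, authors' deposited table). A pair of body sites of like low signal, 2.06 and 3.32, had -1.81 ± 1.41 and -2.06 ± 1.15 and was not called (authors' adjusted p = 0.139 and 0.0526, authors' deposited table).

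Neither the site at the listed start of Prdm1 nor the site at its upstream end was called. Over the listed start, whose sequence is printed above, the site of signal 19.5 had -0.12 ± 0.33, and 961 bp beyond the upstream end of the gene the site of signal 22.9 had -0.07 ± 0.30 (authors' adjusted p = 0.734 and 0.819, authors' deposited table). Both errors are small beside the change at the distal site of signal 33.9.

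Stat4, chr1:51987106-52107189, had the most sites, 14, and the widest spread of log2 fold changes, 9.55 from lowest to highest, wider than in 94.4% of genes with at least 3 sites. A range can only widen as sites are added, and the compared genes were not matched for their number of sites. The largest rise of the 66 sites, 5.38 ± 0.84 (authors' adjusted p = 2.59e-09, authors' deposited table), was at chr1:51996778-51997278, 9.88 kb into the gene, at a mean signal of 26.4. A site 1.74 kb further in had -0.28 ± 0.60 and was not called (authors' adjusted p = 0.63, authors' deposited table). At the second listed start, sites 312 and 960 bp into the transcript were lower by 4.17 ± 1.04 and 3.03 ± 0.96 on the log2 scale (authors' adjusted p = 0.000142 and 0.00238, authors' deposited table).

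The rest of the Stat4 gene body was lower at 1 site (-2.69 ± 1.22, authors' adjusted p = 0.021, authors' deposited table) and uncalled at 3 sites of signal 2.38 to 3.04, with values of 0.64, 0.69 and -1.10. Upstream, 10.3 kb from the gene, 2.19 ± 1.60 was not called (authors' adjusted p = 0.109, authors' deposited table). Past the 3′ end, the site of strongest signal, 38.1, over the start of Gm31812 printed above, was higher by 1.06 ± 0.30 (authors' adjusted p = 0.000518, authors' deposited table).

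Tnfaip3, chr10:19000910-19015410, had no site in the gene, and 1 of its 3 flanking sites was called. The site 19.6 kb upstream of the gene, chr10:19034715-19035215, was higher in NPC by 4.53 ± 1.17 on the log2 scale (authors' adjusted p = 0.000198, authors' deposited table) at a mean signal of 6.81. The others, 28.7 kb upstream and 47.1 kb beyond the 3′ end, had 1.08 ± 0.90 and 0.70 ± 0.85 and were not called (authors' adjusted p = 0.177 and 0.355, authors' deposited table). Their signals of 3.75 and 3.27 were below the median of listed sites, 5.78, and changes of this size could not be told from 0 at such counts.

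Ptprc, chr1:138062859-138175756, had 4 rises, 3 falls and 4 uncalled sites. Beyond the 3′ end, 33.0 kb from the gene, the site at chr1:138029599-138030099 was higher by 4.98 ± 0.75 on the log2 scale (authors' adjusted p = 8.50e-10, authors' deposited table) at a mean signal of 24.5, and the site 22.2 kb away was higher by 2.63 ± 1.24 (authors' adjusted p = 0.025). Inside the gene, sites 38.5 and 26.1 kb from the nearest listed start were higher by 2.44 ± 0.48 and 3.53 ± 1.29 (authors' adjusted p = 3.73e-06 and 0.00543, authors' deposited table), while the site 54994 bp from it was lower, -4.28 ± 1.20 (authors' adjusted p = 0.000529). Upstream of the start, 4.55 and 30.4 kb from the gene, both sites were lower, with -1.99 ± 0.91 and -3.08 ± 1.00 (authors' adjusted p = 0.0242 and 0.0028, authors' deposited table).

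No site lay within 1000 bp of an end of Ptprc, and GC content of its listed start windows was 36.8% and 31.6%, the lowest among the windows of the 7 genes. Its uncalled sites had 0.12 ± 0.44 and 0.23 ± 0.39 at signals of 8.70 and 12.5, and -1.60 ± 1.46 and -0.91 ± 1.44 at 1.91 and 1.60 (authors' deposited table). The errors of the first pair are small beside the changes at called neighbours, and those of the second pair are not. All 11 sites had Ptprc as their nearest protein-coding gene, which held for 48 of the 66 sites, for 3 of 12 at Ikzf1 and for 9 of 14 at Stat4. Being close to a gene is no evidence that a site controls it.

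Cxcr4, a gene of 4.1 kb at chr1:128588199-128592299, was flanked by 4 sites, each higher in NPC in the authors' deposited table. The site 2.05 kb beyond the 3′ end, chr1:128585897-128586397, had the largest change of the 4, with a log2 fold change of 3.83 ± 0.79 (SE, authors' adjusted p = 8.44e-06) at a mean signal of 10.9. The site of strongest signal, 29.3, lay 1.08 kb before the transcription start, upstream of the promoter printed above, and had the smallest change, 1.02 ± 0.34 (authors' adjusted p = 0.00298, authors' deposited table). More distant sites, 26.7 kb beyond the 3′ end and 21.1 kb upstream, had 2.83 ± 0.78 and 2.93 ± 1.18 (authors' adjusted p = 0.000707 and 0.0114, authors' deposited table). The median of 2.88 was above that of 98.9% of the 1897 protein-coding genes with at least 3 sites under the same rule, and of the 1704 genes with at least 4 sites all were called higher at 3, which were Cxcr4, Disp1 and Wasf1. Cxcr4 was picked with results of this comparison already known, so this rank is a description. With the authors' adjusted p below 0.01 instead of 0.05, 3 of the 4 sites were called higher. Beyond the window, values near Cxcr4 were 2.46 ± 1.26 at 55.4 kb, an uncalled 1.77 ± 1.04 at 60.8 kb and -3.20 ± 1.39 at 83.5 kb in the authors' deposited table (authors' adjusted p = 0.0365, 0.0649 and 0.0153).

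Across the 66 sites, opposite calls on neighbouring sites occurred in 5 of 58 neighbour pairs, 2 each at Prdm1 and Ptprc and 1 at Stat4. Calls in both directions at 1 gene were common, being found at 59.6% of the 1897 genes with at least 3 sites and at 4 of the 8 here. Neighbours within 2000 bp of each other differed by a median of 1.72 on the log2 scale (14 pairs), and farther neighbours by 2.39 (44 pairs). The 4 overlapping pairs, which count among the 14 and may share part of their reads, differed by 0.08 to 1.91. The medians of near and farther neighbours therefore do not compare distance alone. Neither these differences nor the share of opposite calls was computed over all listed sites.

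By position, of 26 sites inside one of the 8 genes, 4 were higher and 11 lower (median log2 fold change -1.45), and of 40 in the flanks 12 were higher and 13 lower (median -0.01). Over all listed sites, those inside a protein-coding gene and over 1000 bp from any gene end were 24.7% higher and 33.2% lower, those between genes 20.5% and 38.3%, and those at gene ends 24.1% and 16.1%. The 66 sites placed the same way gave 3 higher and 14 lower of 30 inside genes, 10 higher and 8 lower of 29 between genes, and 3 higher and 2 lower of 7 at gene ends. These are counts over few sites that share genes, with no test.

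Called rises had a median of 2.67 and called falls one of -3.16, where all listed sites had 3.03 and -3.24. Among sites in the strongest 25% of all listed sites by mean signal (above 11.4), 9 of 23 were higher and 7 lower, against 32.8% and 23.4% of all listed sites there. Among the weakest 25% (below 3.38), 1 of 16 was higher and 5 were lower, against 12.4% and 24.8%. SE was 0.25 to 0.84 in the strong sites of the 8 genes and 0.85 to 1.60 in the weak ones, so an uncalled weak site leaves a wide range of changes possible. Rises at strong sites were often small and closely measured, as at Ikzf2, before Cxcr4, over Fignl1 and over Gm31812, each between 0.78 and 1.22.

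The 50000 bp limit cut through runs of sites. Just inside it, sites in Ddc 48.8 and 49.8 kb from Ikzf1 had log2 fold changes of -1.69 and -3.77, and the one 47.1 kb from Tnfaip3 had 0.70. Sites just outside it included those at 55.4 kb from Cxcr4 (2.46 ± 1.26), 55.7 kb from Prdm1 (1.37 ± 0.56) and, in the direction of Ddc, 56.4 kb from Ikzf1 (-5.14 ± 1.00), in the authors' deposited table.

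**Figure D3:**
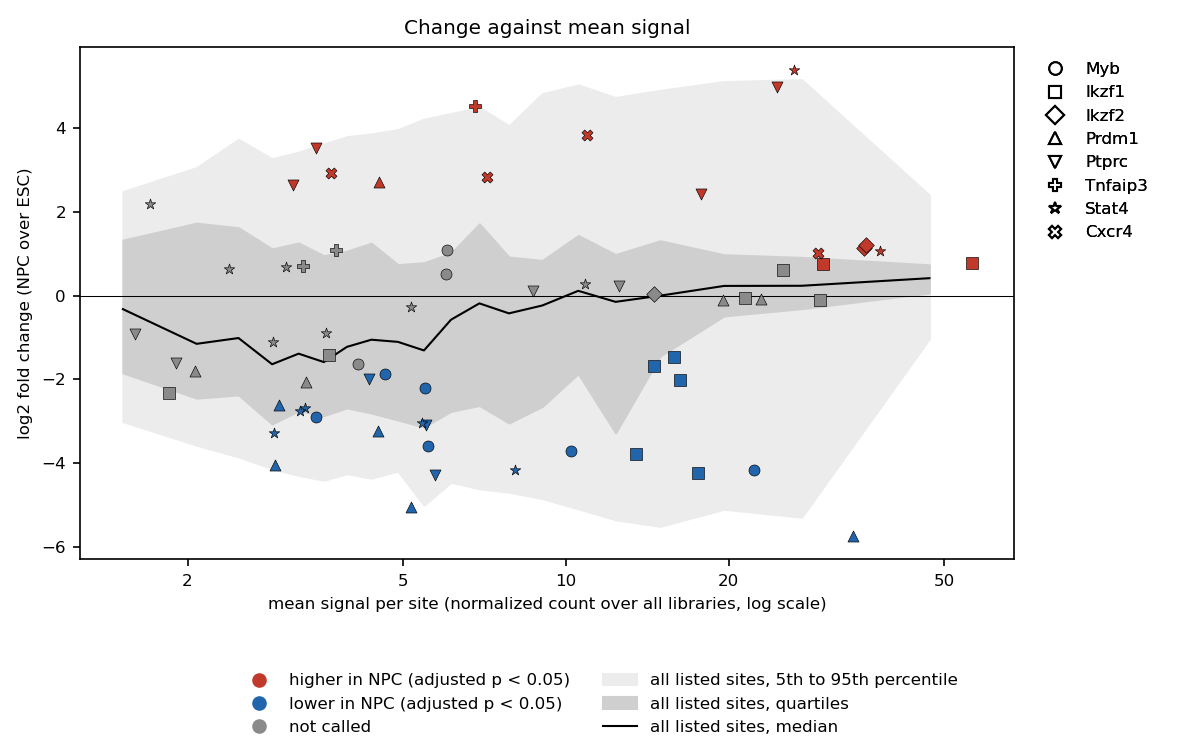
Log2 fold change (NPC over ESC) of the 66 sites against mean signal (normalized count, log scale), with 1 marker shape per gene and colour by call, over the median and percentile bands of all listed sites in 20 bins of signal. Among sites of signal above 20, large changes stand out at Stat4 (5.38), Ptprc (4.98), Prdm1 (-5.74) and Myb (-4.16). The other sites of signal above 20 lie between -0.10 and 1.22. Below 20, changes were also large at Ikzf1 (-4.23 at signal 17.6) and Ptprc (2.44 at 17.8), and small at Prdm1 (-0.12 at 19.5).

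As a check of the labelled cell types, near 4 of 11 neural progenitor markers that had listed sites 17 of 26 sites were higher and 3 lower in NPC (median log2 fold change 1.81), and near 7 of 13 pluripotency markers 12 of 59 were higher and 29 lower (median -1.45). Of all listed sites 22.8% were higher and 32.6% lower. The pluripotency markers differed among themselves. Medians were 1.36 at Nr5a2 and 0.22 at Nodal, and below 0 at the others. Tfcp2l1 had 8 of 8 sites lower, while Lefty2 had 4 higher and 4 lower. Near Fcer1g, Cd48 and Lyz2, markers of blood cells beside Ptprc, 6 of 14 sites were higher and 4 lower (median 0.71). RNA levels of any marker were not analysed here, and the part of other cells in these values was not tested.

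Wider lists of blood and immune genes, chosen by function and not by their values in this table, though with results on some of them known, stood near the background too. Without the sites of the 8 genes, blood cell transcription factors had 17 sites higher and 21 lower of 61 at 6 genes (median log2 fold change -0.25). JAK-STAT and cytokine genes had 19 higher and 28 lower of 79 sites at 22 genes (median -0.04), NF-kappaB and innate signalling genes 18 and 19 of 68 at 8 genes (-0.36), leukocyte surface and antigen receptor genes 37 and 52 of 144 at 32 genes (-0.20), and chemokines with their receptors 4 and 7 of 27 at 8 genes (-0.29). Shares higher were 14.8% to 27.9% and shares lower 25.9% to 36.1%, around the 22.8% and 32.6% of all listed sites.

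Relatives of the members, named here for their kinship with values already seen, differed among themselves. Of 13 sites at Ikzf4 (Eos), the third Ikaros family gene in the listed regions, 7 were lower and 0 higher. The leading site had -2.52 ± 0.45 (authors' adjusted p = 4.89e-07, authors' deposited table). Under the window rule the family held a gene with rises alone (Ikzf2), 1 with falls alone (Ikzf4) and 1 with both (Ikzf1). Both rises in the Ikzf1 window (0.75 and 0.78), and some of its 5 falls, were at sites nearer to Fignl1 or Ddc than to Ikzf1. Ackr3, the second receptor of CXCL12, had 2 of 3 sites lower and 0 higher, with -4.48 ± 0.63 at the leading site (authors' adjusted p = 7.04e-11, authors' deposited table), where all 4 at Cxcr4 were higher.

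Of NF-kappaB genes beside Tnfaip3, likewise named with values seen, the adaptor gene Traf5 had 9 of 14 sites higher and 0 lower, and Irak3, a restraint on Toll-like receptor signalling, had 5 of 14 lower and 0 higher. The site of lowest adjusted p in the Traf5 window was nearest to Rd3, and that in the Irak3 window to Helb. At Traf3ip2, the adaptor of interleukin-17 receptors, the leading site was higher by 4.41 ± 0.45 on the log2 scale (authors' adjusted p = 9.84e-20, authors' deposited table), though the gene had 4 sites higher and 5 lower of 15. Fyn, a Src family kinase gene of lymphocytes and neurons, had 8 of 18 sites higher and 4 lower, and Itgb2, the common chain of leukocyte integrins, 1 of 9 higher and 4 lower. Of all listed sites 22.8% were higher and 32.6% lower. The share lower at Irak3 (35.7%) and both shares at Traf3ip2 (26.7% higher, 33.3% lower) were near these. The windows of Fyn and Traf3ip2 overlap and both hold a site of -4.88, so their counts are not separate. Neither direction ran through any of these lists.

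**Figure D4:**
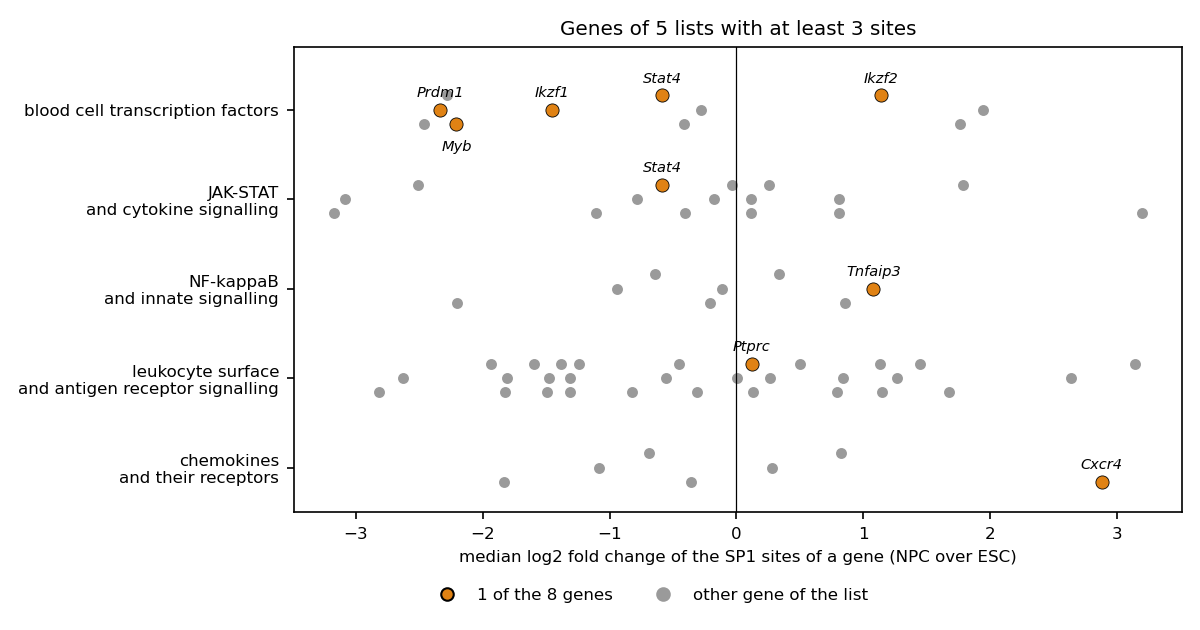
Median log2 fold change (NPC over ESC) of the SP1 sites of each gene with at least 3 sites in 5 lists of blood and immune genes, the 8 genes in orange with their names and the other genes in grey (vertical offsets within a list only separate points). Medians lie on both sides of 0 in every list, and Cxcr4, at 2.88, is the highest of the chemokine and receptor genes.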

How the data were processed

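ATAC-seq was measured in 3 NPC and 3 ESC libraries, grouped by the titles in the labels. Per the submitters' processing notes, the mm10 build and BWA 2.1, Picard 2.23.8, MACS2 2.2.7, SAMtools 1.9 and DESeq2 were used. Their settings, any Tn5 offset and the choice of SP1 sites, which could change each count, were not given in the sources used here. The mean signal, the log2 fold change with its SE, and the p-value and adjusted p-value are the authors' deposited values, per the file headers. The table does not say whether coordinates count from 0 or 1. The fold changes may have been shrunk, which would understate those of weak sites. The deposited p-values are not those that the printed fold change over its SE gives. An SE and a p-value printed together are therefore not parts of the same test, and the reason was not tested.

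From these, sites were assigned to genes by midpoint with RefSeq positions, and counted with Python 3.11.15, pandas 2.3.3, NumPy 2.4.6 and SciPy 1.17.1, and drawn with matplotlib 3.10.9. Calls use the authors' adjusted p-values, and no test of a gene or list was added, because members and lists were chosen with earlier results of these data known. Depth per library is unknown, and low counts limit the precision of weak sites through their SE. The rule for full values was every site of the 8 genes that is called or within 1000 bp of a gene end, except some sites around Stat4, inside and just outside the window, which are not reported here one by one. Those inside count in its totals. Alternatives covered the window, nearest-gene assignment, weak and overlapping sites, thresholds, centring and p-values recomputed as fold change over SE with Benjamini-Hochberg adjustment over listed sites, a step tested on simulated data.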

Additional observations from a re-analysis of the deposited data

How the results depend on the processing

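The counts follow the width of the window. Of the 66 sites 16 were higher and 24 lower in NPC, against 4 and 11 of 26 with sites inside the genes alone (median log2 fold change -1.45), and 8 and 12 of 33 with flanks of 10000 bp. Flanks of 100000 bp gave 24 and 34 of 93, and sites nearest to their member gene 13 and 16 of 48. An adjusted p below 0.01 gave 13 and 17. Per gene this left 3 sites higher at Cxcr4 and 4 lower at Myb. Stat4 then had 2 higher and 2 lower, Ptprc 3 and 2, Ikzf1 1 and 5, and Prdm1 1 and 4. Counts at Ikzf2 and Tnfaip3 did not change. Recomputed p-values gave 15 and 19 (1688 and 2382 of all listed sites, where the deposited calls are 2052 and 2934). With them Cxcr4 had 4 sites higher, Myb 5 lower, Stat4 2 higher and 3 lower, and Ptprc 3 and 2. Recomputed p-values with centring on the median of all sites, which adds 0.29 to every value, gave 17 and 17 (2081 and 2049 of all listed sites). The median of the 66 sites stayed negative, from -1.45 to -0.09, in the settings that gave one. Per gene, the median changed sign at Ikzf2 with flanks of 100000 bp (-0.30) and at Ptprc with flanks of 10000 bp (-0.34), and the median at Tnfaip3 was 2.80 without the lowest 25% of sites by signal. Sites inside the gene gave no value at Tnfaip3 and Cxcr4, nor did flanks of 10000 bp at Tnfaip3. The cause was not tested, beyond the different sites counted. No paired analysis was possible because the table holds 1 value per site over all libraries, so neither a replicate block nor leaving out a library could be run. Low counts limit single sites: SE was 0.85 or more in those of the 66 sites among the weakest 25% of listed sites by signal.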
